A study of Saccharomyces cerevisiae with 4 samples.

Results

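The proteins of the small (40S) subunit of the cytosolic ribosome were followed in budding yeast, Saccharomyces cerevisiae, as the genes whose symbol on the array platform is RPS, a number and an optional A or B. The pattern found 65 probe sets of 52 genes, among 10928 probe sets and 5449 S. cerevisiae genes in all. Of 56 such genes in the RefSeq gene table, 4 have no probe set of their own here, RPS4A, RPS6A and RPS30B among them. The 2 groups compared, with 2 arrays each, were both of the wild-type strain W1588-4c. One received ebselen, an organic selenium compound that attacks the thiol groups of proteins, at 100 µM during 3 h. The other received DMSO, in which the drug was dissolved, for a time that the sample records used here do not give. All cultures grew in YPD, a rich glucose medium, to log phase (OD600 of 0.6 to 0.8). The arrays are labelled as biological replicates, every direction below rests on those labels, and RNA was measured on Affymetrix Yeast Genome 2.0 arrays after priming from the poly-A end.

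The small subunit binds the mRNA, carries the decoding centre and, with initiation factors, finds the start codon. It is built from the 18S rRNA and a set of proteins, most of which yeast encodes with a pair of near-identical paralogs left by a genome duplication. Ribosomal protein genes are transcribed together under Rap1, Fhl1, Ifh1 and Sfp1, downstream of the TORC1 and protein kinase A pathways. Their transcripts are known to be high in fast growth and low under many stresses. The rise reported below runs opposite to that known stress direction, and the array labels were not checked against another source.

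Levels are log2 values relative to each gene's own median over the 4 arrays, so they compare arrays and not genes. Where both ebselen arrays lay above both DMSO arrays, this centring makes a probe set's lower ebselen and higher DMSO values equal and opposite. Such mirrored levels are no sign of agreement between arrays. A change is the ebselen mean minus the DMSO mean on that log2 scale, with limma's moderated SE (n = 2 arrays per group). A gene rose where limma's Benjamini-Hochberg adjusted p over all 5449 genes was under 0.05. By this rule 33% of all genes were higher in ebselen and 38.8% lower. Of all calls 45.9% were rises, and 11.9% were when the arrays were scaled on their hybridization controls (27 probe sets of transcripts added to the hybridization mix). That scaling takes the same amount from every gene of an array. The error of this amount is common to all genes, which limma's p-values do not allow for, so calls under this scaling only describe. The scaling moved the median change of all genes to −0.50, against −0.03 as deposited. The small-subunit genes are therefore set beside all genes of the same arrays. In 8 yeast control transcripts probed at both ends, the 5′ minus 3′ signal changed by −0.75 ± 0.26 (SD over the transcripts) in ebselen. Its part in the changes described here was not tested.

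All 52 small-subunit genes rose in ebselen, by 1.29-fold (RPS30A, on a probe set shared with other transcripts) to 8.38-fold (RPS9A). Their median change was 0.96, or 1.94-fold, against −0.03 for all genes. Both ebselen arrays lay above both DMSO arrays for all 52, as they did for 40.5% of all genes. Of the 52, 23 rose at least 2-fold, against 4.18% of all genes, and 45 rose by at least 0.50, against 17.2%. The median level of the 52 genes was 0.46 and 0.48 on the ebselen arrays and −0.49 and −0.48 on the DMSO arrays. The methods' t-test with Benjamini-Hochberg adjustment also called 52 higher and 0 lower. That 52 were higher at an unadjusted limma p under 0.05 follows from the adjusted calls. With scaling on the hybridization controls, whose calls only describe, 37 rose, 0 fell and the median was 0.49.

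**Figure D1:**
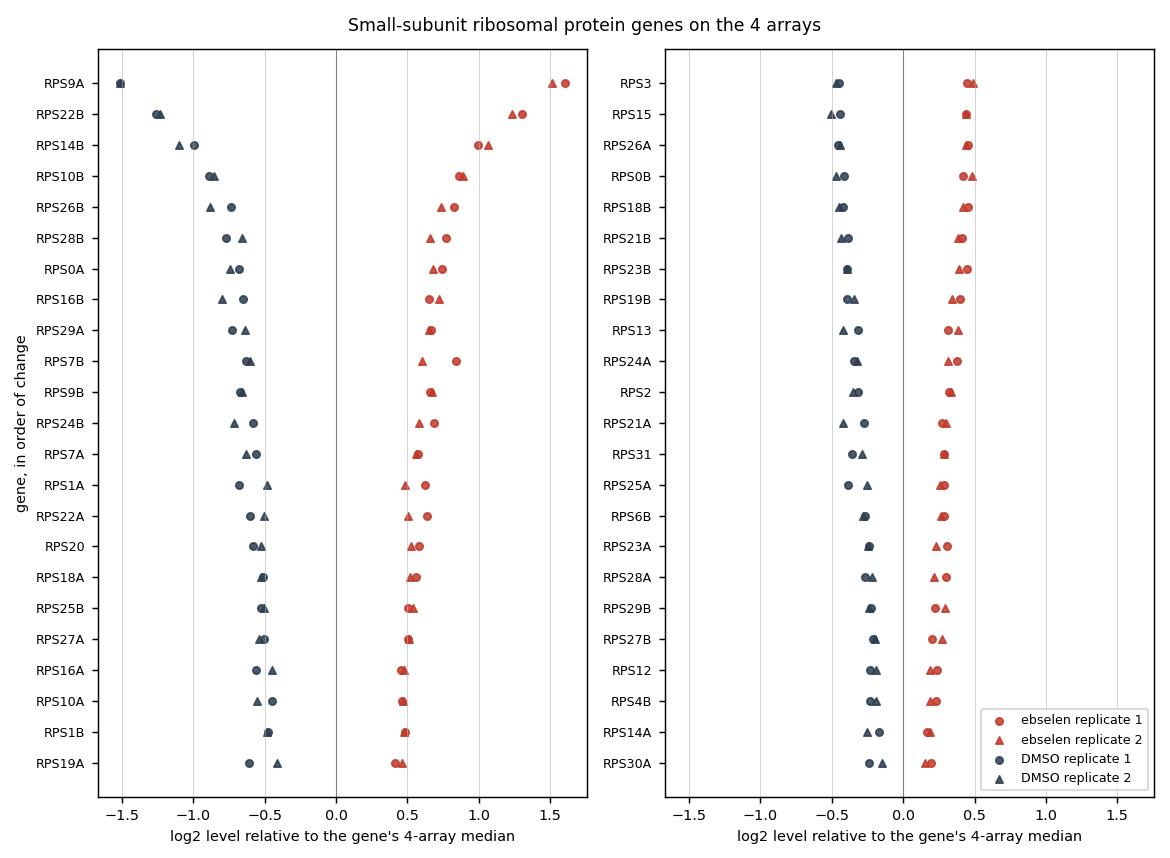
Log2 level of 46 of the 52 genes relative to the gene's 4-array median (x axis), in order of change (y axis). Red points are the ebselen arrays, dark points the DMSO arrays, circles replicate 1 and triangles replicate 2. The red and dark points do not overlap for any gene drawn, and the gap between them runs from 0.37 for RPS30A to 3.07 for RPS9A in the means.

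The largest rises were in RPS9A, RPS22B and RPS14B, each 1 copy of a pair. RPS9A (YPL081W) encodes Rps9, a protein of the subunit body at the mRNA entry channel that bears on decoding accuracy. Its level was 1.60 and 1.51 on the ebselen arrays, against −1.51 and −1.51 on the DMSO arrays. This change of 3.07 ± 0.06 (limma adjusted p after Benjamini-Hochberg, 1.16e-05) had rank 1 among all 5449 genes. The gene contains an intron through which its expression is known to respond to Rps9 protein.

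RPS22B (YLR367W) encodes Rps22, which binds the 18S rRNA early in assembly. Its level was 1.30 and 1.23 in ebselen, against −1.26 and −1.23 in DMSO, a change of 2.51 ± 0.05 (limma adjusted p after Benjamini-Hochberg, 1.19e-05) with rank 4 among all genes. The RefSeq table places the small nucleolar RNA gene SNR44 inside RPS22B, and an intron of its precursor is known to be cut by the nuclease Rnt1. RPS14B (YJL191W) encodes Rps14, a platform protein near the 3′ end of the 18S rRNA, and its precursor is known to be bound by Rps14 itself. Its level was 0.99 and 1.07 in ebselen, against −0.99 and −1.10 in DMSO (change 2.08 ± 0.06, rank 17).

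RPS10B, RPS26B, RPS28B and RPS0A were also among the 8 largest rises. RPS10B (YMR230W), for a protein of the subunit head, had levels of 0.86 and 0.89 in ebselen, against −0.89 and −0.86 in DMSO, a 3.35-fold rise. RPS26B (YER131W), for a protein at the mRNA exit channel, had 0.83 and 0.73 in ebselen, against −0.73 and −0.88 in DMSO, a 3.00-fold rise. Both groups of arrays were thus well apart for each gene. RPS28B (YLR264W), whose protein is known to bind its own mRNA and promote its decay, had 0.77 and 0.66 in ebselen, against −0.77 and −0.66 in DMSO. RPS0A (YGR214W), for a protein that joins late in maturation, had 0.74 and 0.68 in ebselen, against −0.68 and −0.74 in DMSO. These genes rose 2.70-fold and 2.68-fold.

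The smallest rises were in RPS30A, RPS14A, RPS4B and RPS12. RPS30A and RPS4B were each measured only on a probe set marked as shared by several transcripts. Their values need not be those of a single gene, and shared probe sets had a lower median change (below). RPS30A (YLR287C-A), for a protein near the decoding centre, had levels of 0.20 and 0.15 in ebselen, against −0.24 and −0.15 in DMSO. RPS14A (YCR031C), the partner of RPS14B, had 0.17 and 0.19 in ebselen, against −0.17 and −0.26 in DMSO. The groups were still apart in these genes, with changes of 0.37 ± 0.06 and 0.39 ± 0.06. RPS4B (YHR203C), for a protein of the body, had 0.23 and 0.19 in ebselen, against −0.23 and −0.19 in DMSO. RPS12 (YOR369C), for a protein of the beak of the head, had 0.24 and 0.19 in ebselen, against −0.23 and −0.19 in DMSO. With scaling on the hybridization controls these 4 genes and RPS27B had changes of −0.10 to −0.024, and none of the 5 was called.

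The 7 genes whose symbol has no A or B had a median change of 0.72, with 1 of them (RPS20) above 2-fold. Among proteins of the mRNA entry channel, RPS3 (YNL178W) had levels of 0.45 and 0.49 in ebselen, against −0.45 and −0.47 in DMSO (change 0.93 ± 0.05), and RPS2 changed by 0.66 ± 0.05. In the head, RPS20 changed by 1.11 ± 0.06, RPS15, whose tail reaches the decoding centre, by 0.91 ± 0.05, and RPS12 by 0.43 ± 0.05. RPS13, of the platform, changed by 0.72 ± 0.06. RPS31 (YLR167W), made as a fusion with ubiquitin, had 0.28 and 0.29 in ebselen, against −0.36 and −0.28 in DMSO (change 0.61 ± 0.05). All 7 passed the limma test.

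RPS6B (YBR181C) encodes Rps6, which is phosphorylated downstream of TORC1. Its level was 0.29 and 0.26 in ebselen, against −0.26 and −0.28 in DMSO, a change of 0.55 ± 0.05. Its probe set is marked as shared, so RPS6B and RPS6A cannot be told apart in it.

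The paralogs of a pair often rose by different amounts. For 21 pairs both genes were measured, and paralog A minus paralog B was taken within each array. A shift equal for all genes of an array cancels in this difference, but a normalization that depends on the value does not. The test was limma with Benjamini-Hochberg adjustment over all 57 pairs of yeast symbols that differ only in a final A or B (5 of them systematic names that need not be paralogs). The change differed in 18 of 21 small-subunit pairs, with the larger rise in copy A for 7 and in copy B for 11. Among all 57 pairs 75.4% differed, and 25 of the 36 pairs outside the small subunit did. Of the 57, 48 were pairs of small- or large-subunit genes. Shares over all pairs are thus mostly those of ribosomal proteins, not of yeast paralogs at large. The difference was at least 0.50 in 10 of the 21, against 36.8% of all pairs. Arrays of the groups did not overlap in any of the 21 differences, nor in 89.5% of all pairs.

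**Figure D2:**
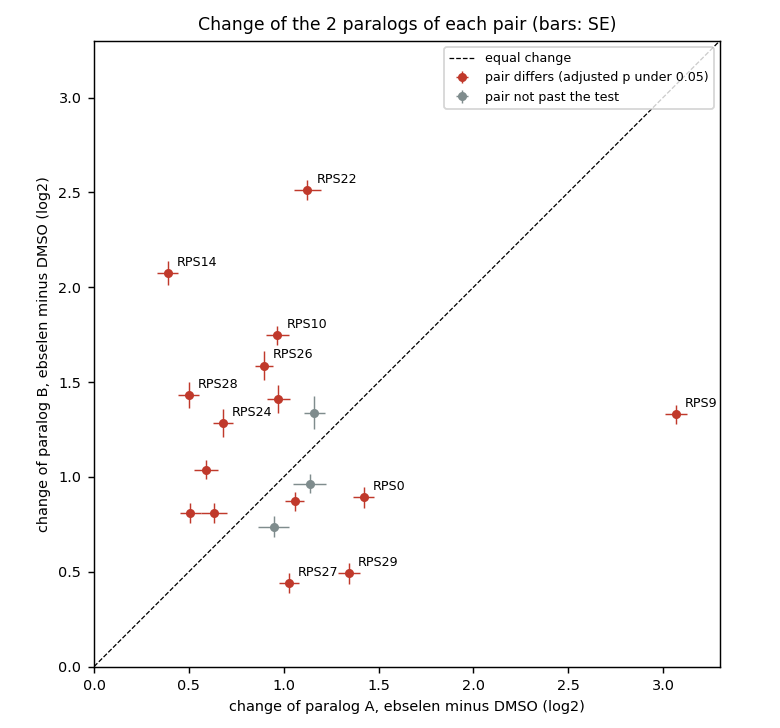
Change of paralog A (x axis) against change of paralog B (y axis), ebselen minus DMSO on the log2 scale, for 18 of the 21 pairs, with bars for limma's SE. Red pairs passed the test of the difference, grey pairs did not, the dashed line marks equal change, and pairs differing by over 0.50 are named. RPS9 lies far to the right (3.07 for A, 1.33 for B), while RPS14 (0.39 for A, 2.08 for B) and RPS22 (1.13 for A, 2.51 for B) lie far above the line.

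The RPS9, RPS14 and RPS22 pairs had the 2nd, 3rd and 4th largest differences of the 57, after a pair of systematic names. RPS9B (YBR189W) had levels of 0.66 and 0.67 in ebselen, against −0.68 and −0.66 in DMSO. It rose 2.51-fold where RPS9A rose 8.38-fold, and A minus B changed by 1.74 ± 0.05 (limma adjusted p after Benjamini-Hochberg over the pairs, 6.31e-05). RPS14A and RPS14B differed in the other direction, by −1.69 ± 0.04 (limma adjusted p after Benjamini-Hochberg, 6.18e-05), with rises of 1.31-fold and 4.21-fold.

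RPS22A (YJL190C) had levels of 0.64 and 0.51 in ebselen, against −0.60 and −0.51 in DMSO. It rose 2.18-fold and its partner RPS22B 5.71-fold, a difference of −1.39 ± 0.05 (limma adjusted p after Benjamini-Hochberg, 6.31e-05). None of the genes of the RPS9, RPS14 and RPS22 pairs has a shared probe set. Counting introns, RPS22B spans from its start codon to its stop codon 876 bases and RPS22A 393 bases in the RefSeq table. RPS9A spans 1095 bases and RPS9B 1001, and RPS14B spans 825 bases and RPS14A 721. Over the 21 pairs the copy that rose more had the longer span in 8, the shorter in 7 and an equal one in 6.

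RPS28, RPS29 and RPS10 followed. RPS28A (YOR167C) had levels of 0.30 and 0.22 in ebselen, against −0.26 and −0.22 in DMSO, and the pair differed by −0.93 ± 0.05. RPS29A (YLR388W) and RPS29B (YDL061C) encode a zinc-binding protein of the head. RPS29A had 0.66 and 0.65 in ebselen, against −0.73 and −0.64 in DMSO. RPS29B had 0.22 and 0.29 in ebselen, against −0.22 and −0.24 in DMSO, and A minus B changed by 0.85 ± 0.06. RPS10A (YOR293W) had 0.46 and 0.47 in ebselen, against −0.45 and −0.55 in DMSO, and the pair differed by −0.78 ± 0.06. In each of these pairs the copy with the smaller change had both ebselen arrays above both DMSO arrays.

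RPS26A (YGL189C) had levels of 0.46 and 0.44 in ebselen, against −0.45 and −0.44 in DMSO, and rose less than RPS26B (difference −0.69 ± 0.07). RPS27A (YKL156W), for a zinc-finger protein of the platform, had 0.50 and 0.51 in ebselen, against −0.50 and −0.54 in DMSO. RPS27B (YHR021C) had 0.20 and 0.28 in ebselen, against −0.21 and −0.20 in DMSO, so copy A rose more (difference 0.59 ± 0.05). RPS24, of the body, differed by −0.60 ± 0.07, and RPS0 by 0.53 ± 0.06.

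Smaller differences were measured in other pairs. RPS25 (−0.45 ± 0.06), RPS16 (−0.44 ± 0.10), RPS23 (−0.30 ± 0.04) and RPS21 (−0.18 ± 0.05) rose more in copy B. RPS1 (0.17 ± 0.09), RPS7 (−0.18 ± 0.09) and RPS19 (0.21 ± 0.07) did not pass the test, with limma adjusted p values (Benjamini-Hochberg) of 0.139, 0.133 and 0.0541. RPS16 lost its call without either ebselen array (limma adjusted p after Benjamini-Hochberg 0.0988 without replicate 1 and 0.112 without replicate 2). RPS21 lost it without ebselen replicate 1 (0.170), ebselen replicate 2 (0.102) or DMSO replicate 1 (0.150). Without DMSO replicate 2, RPS1 (0.0435) and RPS19 (0.0325) gained one in the same limma test.

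RPS18 passed the test on the mean of each gene's probe sets, with a difference of 0.19 ± 0.04. On unique probe sets alone the difference was −0.070 ± 0.04 and was not called (limma adjusted p after Benjamini-Hochberg, 0.208). RPS18 also lost its call without ebselen replicate 1 (0.0515) or DMSO replicate 1 (0.0583). On unique probe sets 14 of the 21 pairs differed, with the larger rise in copy A for 4 and in copy B for 10.

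Shared probe sets had a lower median change than unique ones. Affymetrix marks a probe set with the suffix _s_at where all its probes match several transcripts and with _x_at where some do. The 49 unique probe sets of these genes had a median change of 1.04, the 10 _s_at probe sets 0.58 and the 6 _x_at probe sets 0.96. Over all S. cerevisiae probe sets the medians were 0.02 for 128 shared and −0.03 for 5370 unique ones. Of the 52 genes, 36 have a unique probe set only, 13 have both kinds, and RPS4B, RPS6B and RPS30A have an _s_at probe set only. These 3 were among the smaller rises, with a median of 0.42, against 1.05 for the 36 genes.

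Within the same gene, the _s_at probe set changed less than the unique one in 6 of 7 genes, with a median difference of −0.51. RPS18B showed 0.61 on its shared and 1.13 on its unique probe set, and the unique probe set of its partner RPS18A 1.06. RPS23A showed 0.39 and 0.63, and RPS23B 0.81. RPS19B showed 0.66 and 0.82, and RPS19A 0.95. In each of the 6 the shared probe set lay below the unique probe sets of both copies. The seventh, RPS24A (0.82 on the shared, 0.54 on the unique probe set), lay between its own value and that of RPS24B (1.28). For the 6 _x_at probe sets the median difference was −0.04, and the largest was −0.38 in RPS29A. These differences were not tested. The deposited values hold no brightness, so saturation of bright probe sets could not be examined, and cross-hybridization between paralogs on the unique probe sets was not tested.

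**Figure D3:**
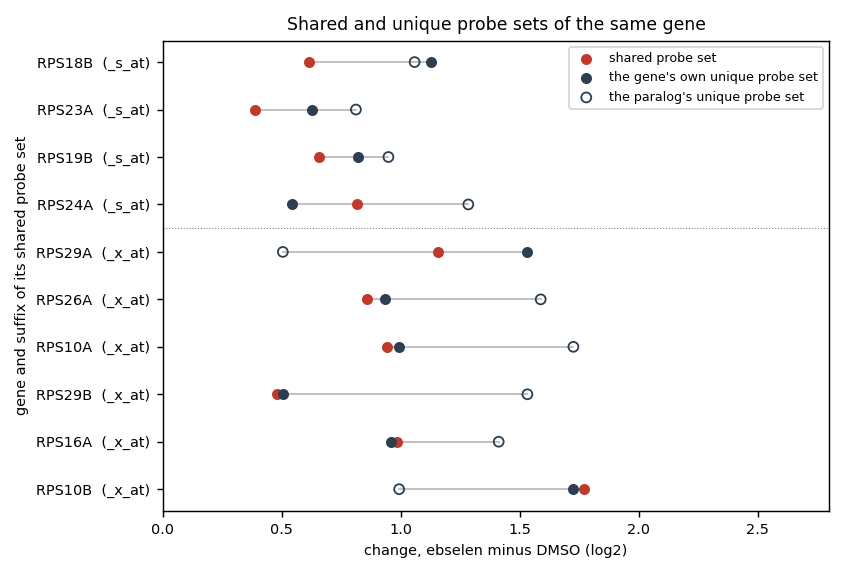
Change, ebselen minus DMSO on the log2 scale (x axis), of the shared probe set (red), the gene's own unique probe set (dark) and the paralog's unique probe set (open) for 10 of the 13 genes with both kinds (y axis). Above the dotted line are 4 _s_at and below it the 6 _x_at probe sets. In 3 of the 4 _s_at genes drawn the red point lies left of both others, while most _x_at points lie close to the gene's own unique probe set.

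Gene span was set against the rise. Across the 52 genes, which share the same arrays, Pearson's r of change with log2 span was 0.17 and Spearman's rho 0.19, and r was 0.07 without RPS9A and RPS22B. Over all 5449 genes r was 0.14 and rho 0.19. Genes whose span is not a multiple of 3, and which therefore hold an intron, had a median change of 0.84 (24 genes), against 1.05 for the other 28, a mixture of genes with and without introns. Of 84 measured genes next to a member that are no members themselves and do not overlap one, 32 rose and 22 fell, with a median change of 0.11, where 33% of all genes rose and 38.8% fell. Several of the 84 are themselves large-subunit or stalk genes, groups given below in which nearly all rose. The small reading frame YMR230W-A beside RPS10B, also of the 84 and named after its value was seen, changed by 2.73 ± 0.16.

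Other parts of the ribosome were set beside the small-subunit genes. Of 70 large-subunit genes 69 rose, with a median of 0.91, and all 5 genes of the acidic stalk rose, with a median of 0.47 (RPP1B 0.58, RPP2A 0.49, RPP0 0.47). The small-subunit scaffold protein gene ASC1 (0.96 ± 0.06) and STM1, for a protein that clamps idle ribosomes (0.60 ± 0.05), rose too. Mitochondrial small-subunit proteins rose in 11 of 32 genes (34.4%, near the 33% of all genes) and fell in 5, with a median of 0.11, led by NAM9 (0.77), MRP2 (0.57) and RSM19 (0.55).

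Genes that help build the small subunit were counted against the 33% of all genes that rose and the 38.8% that fell. Of 5 chaperones or assembly factors dedicated to single small-subunit proteins, 3 fell, 0 rose and the median was −0.24. LTV1, which accompanies Rps3 on the precursor, changed by −0.84 ± 0.08, YAR1, the chaperone of free Rps3, by −0.79 ± 0.05, and TSR2, that of Rps26, by −0.24 ± 0.06. TSR4, the chaperone of Rps2, had −0.15 ± 0.06 and FAP7, which works with Rps14, −0.11 ± 0.05, and neither passed. All 5 values were negative, so none of the 5 could be higher at an unadjusted limma p under 0.05. Of 28 factors of 40S maturation 11 rose (39.3%) and 11 fell, shares near those of all genes, with a median of −0.07. They included UTP22 (0.83 ± 0.07), HRR25, a kinase that releases Ltv1 (−0.78 ± 0.06), and IMP3 (−0.76 ± 0.06).

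**Figure D4:**
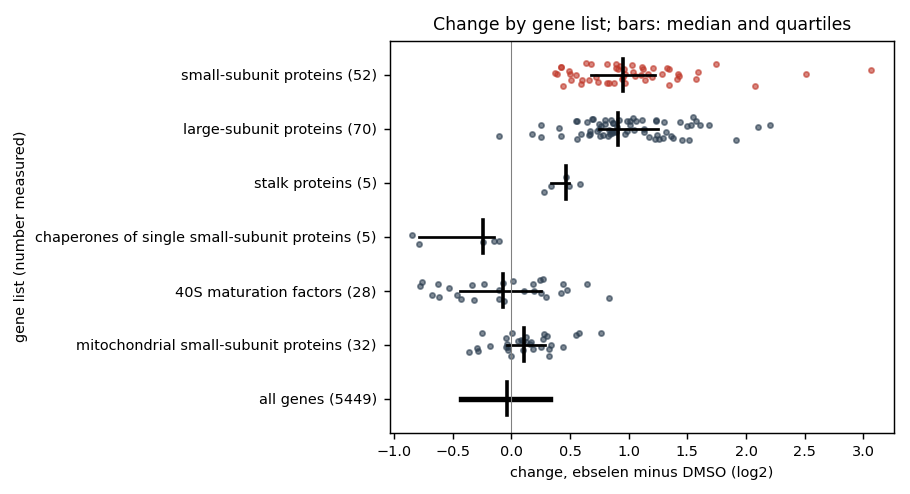
Change, ebselen minus DMSO on the log2 scale (x axis), of single genes (points) by gene list (y axis, number measured in brackets), with bars for the median and quartiles. The small-subunit genes (red) all lie above 0 with a median of 0.96, the 5 dedicated chaperones all lie below 0, and all genes have a median of −0.03.

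The array also carries probe sets for the 18S rRNA and for the fission yeast Schizosaccharomyces pombe, which was not in these cultures. The 8 probe sets of the S. cerevisiae 18S rRNA, which has no poly-A tail, had a median change of 0.26, and the arrays of the groups overlapped in 6 of them. Counted as S. pombe were the 1746 probe sets with 1 gene symbol that matched no gene of the S. cerevisiae RefSeq table. Their species rests on that lack of a match, and probe sets without a symbol were left out. Of the 1746, 99% changed by at most 0.60 in either direction. Of the 52 small-subunit genes 42, and of all 5449 genes 685, rose by more than that. Of 7 S. pombe small-subunit probe sets, 4 had both ebselen arrays above both DMSO arrays, as did 32.4% of the 1746. The largest changes among the 7 were 0.71 for rps21 and 0.64 for rps20.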

How the data were processed

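Expression was measured on 4 Affymetrix Yeast Genome 2.0 arrays (2 ebselen, 2 DMSO). Per the submitters' processing notes, RMA turned the authors' scans into one value per probe set. The design text names GeneSpring, a t-test and Benjamini-Hochberg adjustment for the authors' own calls. The deposited log values were read as log2, the base in which RMA reports, since no source used here states it; every fold rests on that base. Each probe set has a median of 0 over the 4 arrays (largest size 5e-07), so levels cannot be compared between genes. Files name no genome build.

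Platform symbols were matched by gene ID to RefSeq assembly R64, which placed 5498 probe sets on 5449 S. cerevisiae genes. Probe sets of a gene were averaged. Groups were compared with limma 3.58.1 (R 4.3.3; 2 residual and 3.13 prior degrees of freedom, prior SD 0.063), two-sided, with Benjamini-Hochberg adjustment. The procedure was tested on simulated data. The number of arrays limits the precision, and p-values measure only the spread between these arrays. Values on every array are given for the 8 largest rises except 1, the 4 smallest, both genes of the 6 most different pairs and further genes fixed by function; some genes enter the counts and medians but are not reported here one by one. Members, lists and alternatives were chosen with earlier results of these data known. Figures were drawn with matplotlib 3.10.9.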

Additional observations from a re-analysis of the deposited data

How the results depend on the processing

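All 52 small-subunit genes rose under every alternative that tested all 52 except 2: 37 rose with scaling on the hybridization controls and 45 with a required change of at least 0.5. On unique probe sets 49 of 49 rose, and without any 1 array 52 did. The median of the 52 was 0.94 to 0.97 without 1 array, 1.08 with quantile normalization, 0.99 with median centring, 0.89 when S. pombe probe sets set the centre, 0.49 with hybridization-control scaling, 1.15 with the length trend removed and 1.04 on unique probe sets. The median of the unique probe sets was 1.02 to 1.05 without 1 array and 1.19, 1.07, 0.97, 0.57 and 1.23 under the first 5 of these other settings. That of the shared ones was 0.57 with S. pombe centring, 0.18 with hybridization-control scaling and 0.84 with the length trend removed. Hybridization-control scaling, whose calls only describe as said above, gave RPS30A −0.10, RPS14A −0.077, RPS4B −0.045, RPS12 −0.039 and RPS27B −0.024. It also gave 492 rises and 3659 falls over all genes, against 1796 and 2113 as deposited; with a change of at least 0.5 these were 936 and 1175, fewer by construction. That requirement left 10 of the 18 differing pairs. By the methods' t-test 15 pairs differed. Among those that lost their call were RPS16 and RPS21 (t-test adjusted p after Benjamini-Hochberg, 0.115 and 0.121). Across all genes the difference between replicates 1 and 2 in ebselen correlated with that in DMSO at r = −0.075, so the numbers were not taken as a pairing. With them as a replicate block 21 pairs differed and 52 genes rose. Without 1 array 14 to 20 pairs did. On unique probe sets 14 pairs differed, and the difference of RPS18 (−0.070) turned in sign. Other causes were not tested.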
